A study of Mus musculus with 12 samples.

Results

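The collagen chain genes encode the polypeptides that assemble 3 at a time into the collagens of the extracellular matrix. They were taken as every gene whose symbol in the array annotation has the form Col, number, a, number, on a probe set with that symbol alone. This gave 44 genes on 46 probe sets, out of 17380 genes with a probe set of their own. All 44 passed the filter on low signal (log2 6 or more on 3 or more arrays), as did 17186 genes in all. The number of collagen chain genes of this form in the RefSeq annotation was also 44. Col6a5 and Col6a6 had 2 probe sets each and are given by the one with the higher mean.

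The samples were hypothalami of male C57Bl/6J mice aged 21 weeks in 4 groups. ASP mice had aspartame, a dipeptide sweetener, in their drinking water at 46 mg/kg from in utero onward. CGP mice received CGP 39551, which competes with glutamate at the NMDA receptor, at 5 mg/kg by way of their mothers from conception to postnatal day 28. ASP+CGP mice had both exposures, and CON mice had water alone. The RNA of each group was combined into 1 pool, which was run on 3 arrays, for 12 arrays in all. The arrays of a group therefore repeat 1 pool: the p-values measure the spread between arrays, and what a treatment did and what else set its pool apart cannot be told apart. Signals are log2 values after robust multi-array averaging, which subtracts background, equalizes the distributions of the arrays and summarizes the probes of a probe set. A gene was called changed at a Benjamini-Hochberg adjusted p under 0.05 in limma together with a change of over 1.4-fold.

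Collagens are built in the endoplasmic reticulum, where prolines and lysines are hydroxylated and chains wind into a triple helix, and they are trimmed and cross-linked outside the cell. The fibrillar types form the rope-like fibrils of connective tissue, whereas the type IV network is the scaffold of basement membranes. In the brain most collagen lies in the meninges and in the basement membranes of blood vessels, made by fibroblasts, endothelial cells and pericytes, and a few chains, such as Col25a1, are made by neurons.

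The tissue label was held against 17 hypothalamic markers, whose lowest signal on any array was 6.91. This floor cannot settle the tissue, since some markers of other organs lay above it in CON, such as Clps (mean 8.03) and Plin1 (7.39). Relative to CON, 6 of the 17 were lower past the adjusted p in ASP (against 1.16% of all genes) and 2 higher (against 2.92%). In ASP+CGP 6 were lower (against 0.919%) and none was higher. Pomc is on this list and on the pituitary list below. It was among the 2 higher in ASP (0.91) and the 6 lower in ASP+CGP (-1.67). The ASP pool also carried signal of genes of other organs. The summed linear signal of 12 adrenal cortex markers was 21046 to 21401 on the ASP arrays, against 1857 to 1941 on the CON arrays. For 13 adipose tissue markers it was 8637 to 8939 on the ASP arrays, against 1796 to 1863 on the CON arrays. Of 11 exocrine pancreas markers 11 were called higher in ASP, against 175 of all 17186 genes. The 11 pituitary markers set every treated pool apart from CON: they summed to 37455 to 37684 in ASP, 33323 to 33900 in CGP, 4739 to 5353 in ASP+CGP and 18501 to 19462 in CON. Of these 11 markers 7 were called higher in ASP, 7 higher in CGP and 6 lower in ASP+CGP. Among all 17186 genes these calls were 175, 16 and 24. The 15 markers of meningeal fibroblasts, a main source of fibrillar collagen, summed to 8566 to 8877 in ASP, 9211 to 9271 in CGP, 7586 to 7749 in ASP+CGP and 9217 to 9369 in CON. Array 3 of CON and array 3 of ASP+CGP stood furthest from the other arrays of their pools over all genes (SD of the deviations 0.0903 and 0.0996, against 0.0490 to 0.0701 for the other 10). Over the collagen chain genes the same SDs were 0.0437 and 0.0561, against 0.0389 to 0.0555 for the other 10.

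The collagen chain genes were nearly flat across the 4 pools. None of the 44 was called in any of the 5 comparisons. Beside this, limma called 1.05% of all genes in ASP vs CON, 0.111% in CGP vs CON, 0.180% in ASP+CGP vs CON, 1.27% in ASP vs ASP+CGP and, in the ASP x CGP interaction, 1.35% as lower and 0.145% as higher. With shares this low, a count of 0 among 44 genes does not set them apart from other genes. At an unadjusted p under 0.05 limma gave 2 collagen genes in ASP vs CON (4.55%, against 16.9% of all genes), 11 in CGP vs CON (25%, against 11.6%), 2 in ASP+CGP vs CON (4.55%, against 15.4%), 6 in ASP vs ASP+CGP (13.6%, against 21.1%) and 6 in the interaction (13.6%, against 17.9%). The interaction is the aspartame effect with CGP 39551 (ASP+CGP minus CGP) less that without it (ASP minus CON).

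The flatness was bounded for these arrays only, since the intervals hold the spread between arrays of 1 pool and not that between animals. The 95% interval of all 44 genes lay inside a change of 1.4-fold in either direction in each of the 5 comparisons. Most genes did so too. Of all 17186 genes it was 16830 in ASP vs CON, 17064 in CGP vs CON and 17042 in ASP+CGP vs CON. In ASP vs ASP+CGP it was 16719, and in the interaction 15830. The furthest any interval reached was 1.24-fold in ASP vs CON, 1.24-fold in CGP vs CON, 1.21-fold in ASP+CGP vs CON, 1.22-fold in ASP vs ASP+CGP and 1.33-fold in the interaction. The standard error of a fold change relative to CON was 0.04 to 0.08 on the log2 scale, with a median of 0.05. Mean signals ran from 6.58 for Col10a1 to 9.08 for Col25a1; robust multi-array averaging understates changes of dim probe sets, and no measure of detection above background was used here. In pooled tissue, fewer cells of a type and less RNA per cell cannot be told apart.

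**Figure D1:**
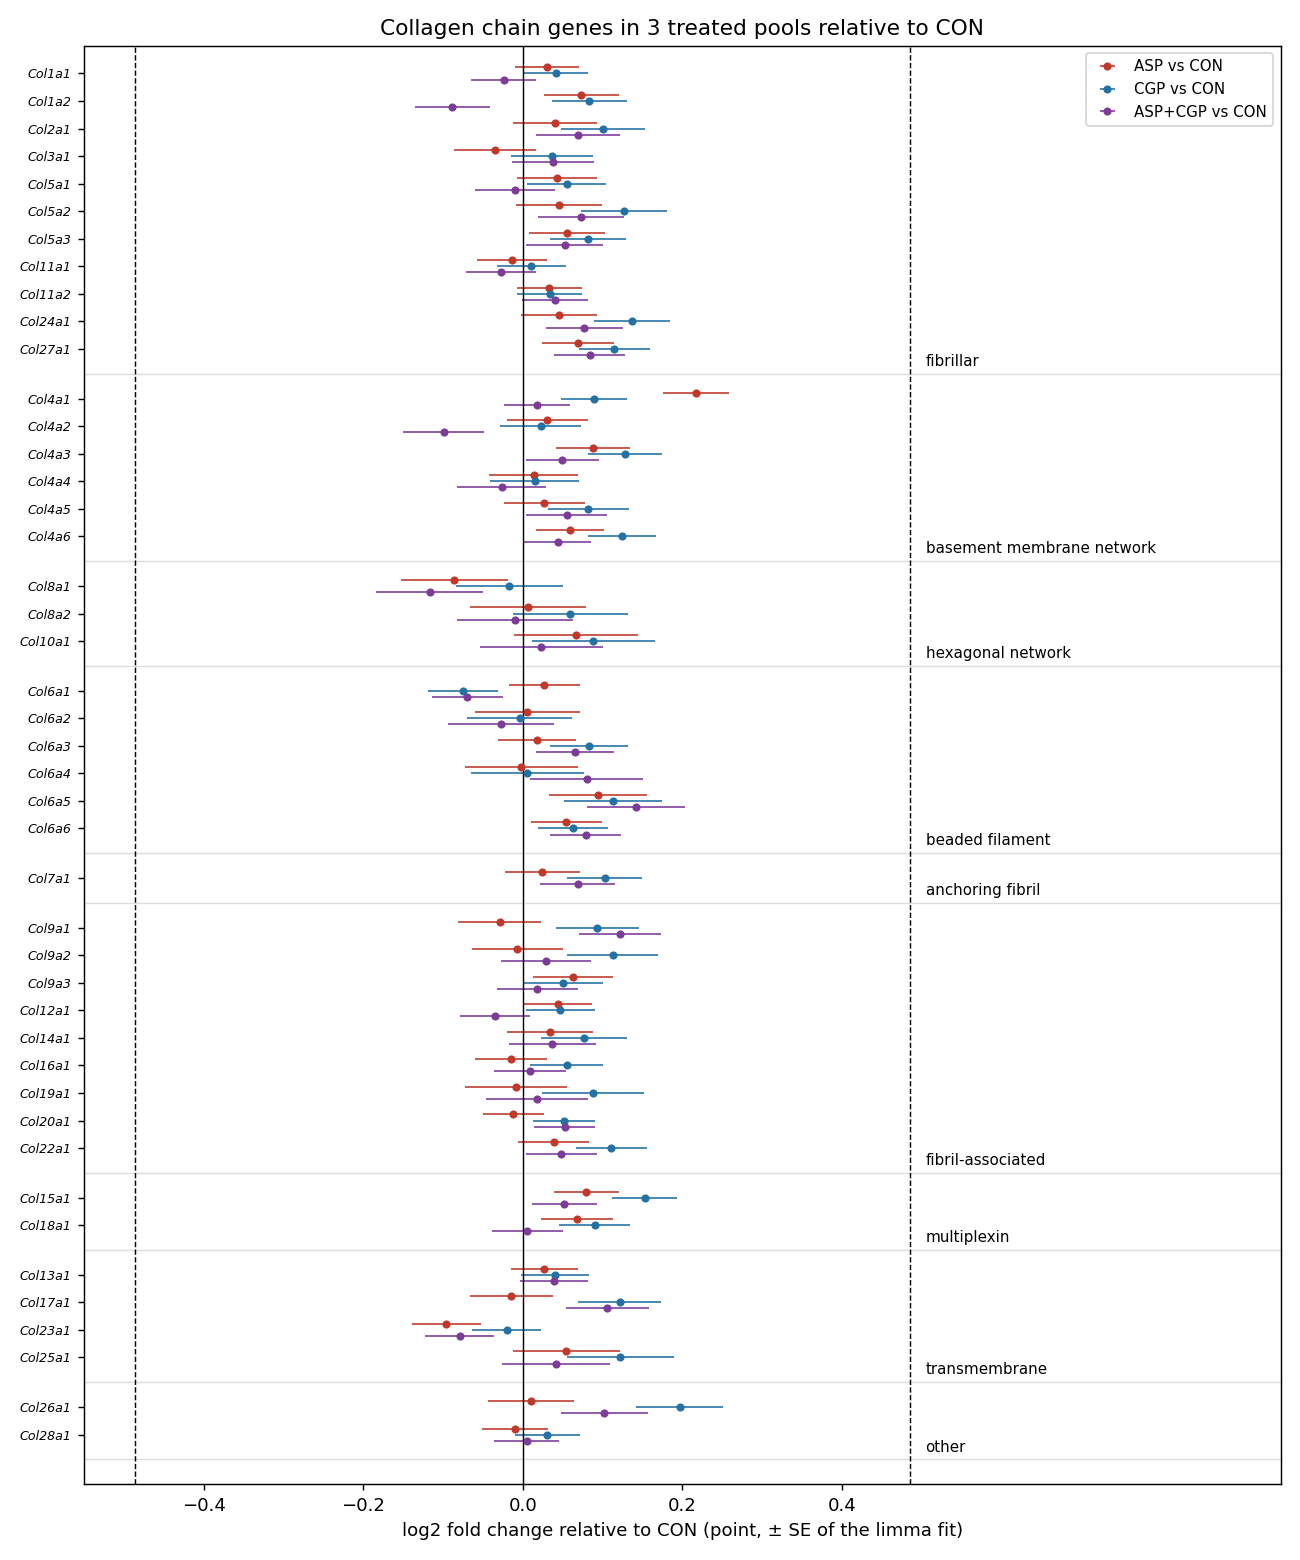
Log2 fold change of each of the 44 collagen chain genes (rows, grouped by structural class) in ASP, CGP and ASP+CGP relative to CON, with bars for the standard error of the limma fit and dashed lines at a change of 1.4-fold. No point comes near a dashed line; Col4a1 in ASP, at 0.22, lies furthest from 0, and most CGP points lie right of 0.

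Col4a1, the main chain of the basement membrane network, was the exception in part. Its signal was 8.28, 8.32 and 8.28 in ASP, 8.18, 8.20 and 8.12 in CGP, 8.13, 8.10 and 8.06 in ASP+CGP and 8.04, 8.09 and 8.11 in CON. Every ASP array lay above every array of the other 3 pools, and the CGP arrays lay just above the CON arrays. ASP was above CON by 0.22 ± 0.04 (log2, SE, n = 3 arrays each), or 1.16-fold, with an adjusted p of 0.0066 in limma, short of the 1.4-fold needed for a call. It was the one collagen gene past the adjusted p in this comparison, where 2.92% of all genes were past it in the higher direction. ASP was also above ASP+CGP by 0.20 ± 0.04 (adjusted p of 0.0089 in limma), where 4.25% of all genes were. The CGP and ASP+CGP differences from CON were 0.09 (adjusted p of 0.42 in limma) and 0.02 (0.88). The interaction was -0.29 ± 0.06 (adjusted p of 0.012 in limma), where 2.78% of all genes were past that threshold in the lower direction. All 5 comparisons of Col4a1 use the same 12 arrays, so these values are not separate evidence.

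Col4a2, the chain that joins a pair of Col4a1 chains in the commonest type IV trimer, did not pass the adjusted p in any comparison. It was at 8.34, 8.28 and 8.24 in ASP, 8.32, 8.27 and 8.25 in CGP, 8.20, 8.17 and 8.11 in ASP+CGP and 8.24, 8.35 and 8.18 in CON. The ASP and CON arrays overlapped, and the ASP+CGP arrays lay below those of ASP and CGP. The difference between ASP and CON was 0.03 ± 0.05 (adjusted p of 0.81 in limma), and that between ASP and ASP+CGP was 0.13 ± 0.05 (0.15). The Col4a1 signal less the Col4a2 signal of the same array was higher than in CON by 0.19 in ASP and by 0.12 in ASP+CGP, with no overlap in either case. The exact two-sided permutation p was 0.10 for both, the smallest that 3 arrays against 3 allow. It was higher by 0.07 in CGP than in CON (0.30) and by 0.07 in ASP than in ASP+CGP (0.20), with overlap. This pair was chosen after its values were seen, and the level of one probe set does not rank against another.

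The 2 genes lie head to head and share a promoter region. The stretch bounded by their annotated starts is shown here because one gene of the pair passed the adjusted p and the other did not. The annotated starts are at either end of 22 bases at chr8:11312805-11312826 (RefSeq, GRCm38.p6), printed 5′ to 3′ on the strand of each gene from its start toward the other gene's. Capitals mark GGGCGG, the core of the GC box bound by Sp1, which reads CCGCCC on the other strand.
Col4a1: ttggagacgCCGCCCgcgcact
Col4a2: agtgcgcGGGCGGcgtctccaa
Both lines are the same stretch, which lies downstream of both annotated starts and so inside both annotated transcripts. A search of both strands found GGGCGG within the first 22 bases of 1344 of 32851 annotated mouse starts (4.09%); this is a match of letters only. Of the 44 collagen chain genes, 35 had an entry among the promoters searched.

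The other type IV chains, which form the networks of kidney, cochlea and smooth muscle basement membranes, passed the adjusted p in none of the comparisons. In ASP vs CON all 6 type IV genes lay above 0, with a median of 0.04, and the adjusted p reached its threshold for Col4a1 alone. Col4a3 differed from CON by 0.09 in ASP and by 0.13 in CGP (adjusted p of 0.36 and 0.28 in limma). Col4a6 was at 7.17, 7.08 and 7.10 in ASP, 7.14, 7.25 and 7.16 in CGP, 7.10, 7.09 and 7.12 in ASP+CGP and 7.07, 7.05 and 7.06 in CON. The CON arrays of Col4a6 thus lay below all 9 others, but its largest difference, 0.12 ± 0.04 in CGP, had an adjusted p of 0.26 in limma.

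Several genes whose proteins sit with type IV collagen in the basement membrane had larger differences in RNA signal in ASP. Of 12 partner genes, 3 were past the adjusted p in ASP vs CON and all 3 were higher (25%, against 2.92% of all genes), with a median of 0.07 over the list, against -0.01 over all genes tested. Hspg2, which encodes perlecan, was the one called. It was at 9.05, 9.16 and 9.08 in ASP and 8.53, 8.52 and 8.50 in CON, a rise of 0.58 ± 0.04. Nid1 (nidogen, which bridges laminin and type IV collagen) differed by 0.48 ± 0.05 and Lamb1 (a laminin chain) by 0.47 ± 0.06, both past the adjusted p and just under 1.4-fold. In both the ASP arrays lay above all the others. Relative to ASP+CGP, all 12 partner genes lay above 0 in ASP, with 4 past the adjusted p (against 4.25% of all genes) and 2 called (against 1.27%), Hspg2 (0.60) and Nid1 (0.55). Of 12 endothelial markers, 2 were higher in ASP than in CON past the adjusted p (against 2.92% of all genes). These were Kdr (a VEGF receptor) by 0.47 and Emcn (endomucin) by 0.50, and the lowest of the 12 was at -0.24. Of 13 markers of pericytes and smooth muscle, 1 was higher past it in ASP vs CON. In ASP vs ASP+CGP 5 of the 13 were (against 4.25%). The summed signal of the 12 endothelial markers was 6720 to 7033 on the ASP arrays and 6340 to 6596 on the CON arrays. The part of the endothelial, adipose and adrenal signal in the Col4a1 value was not tested.

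**Figure D2:**
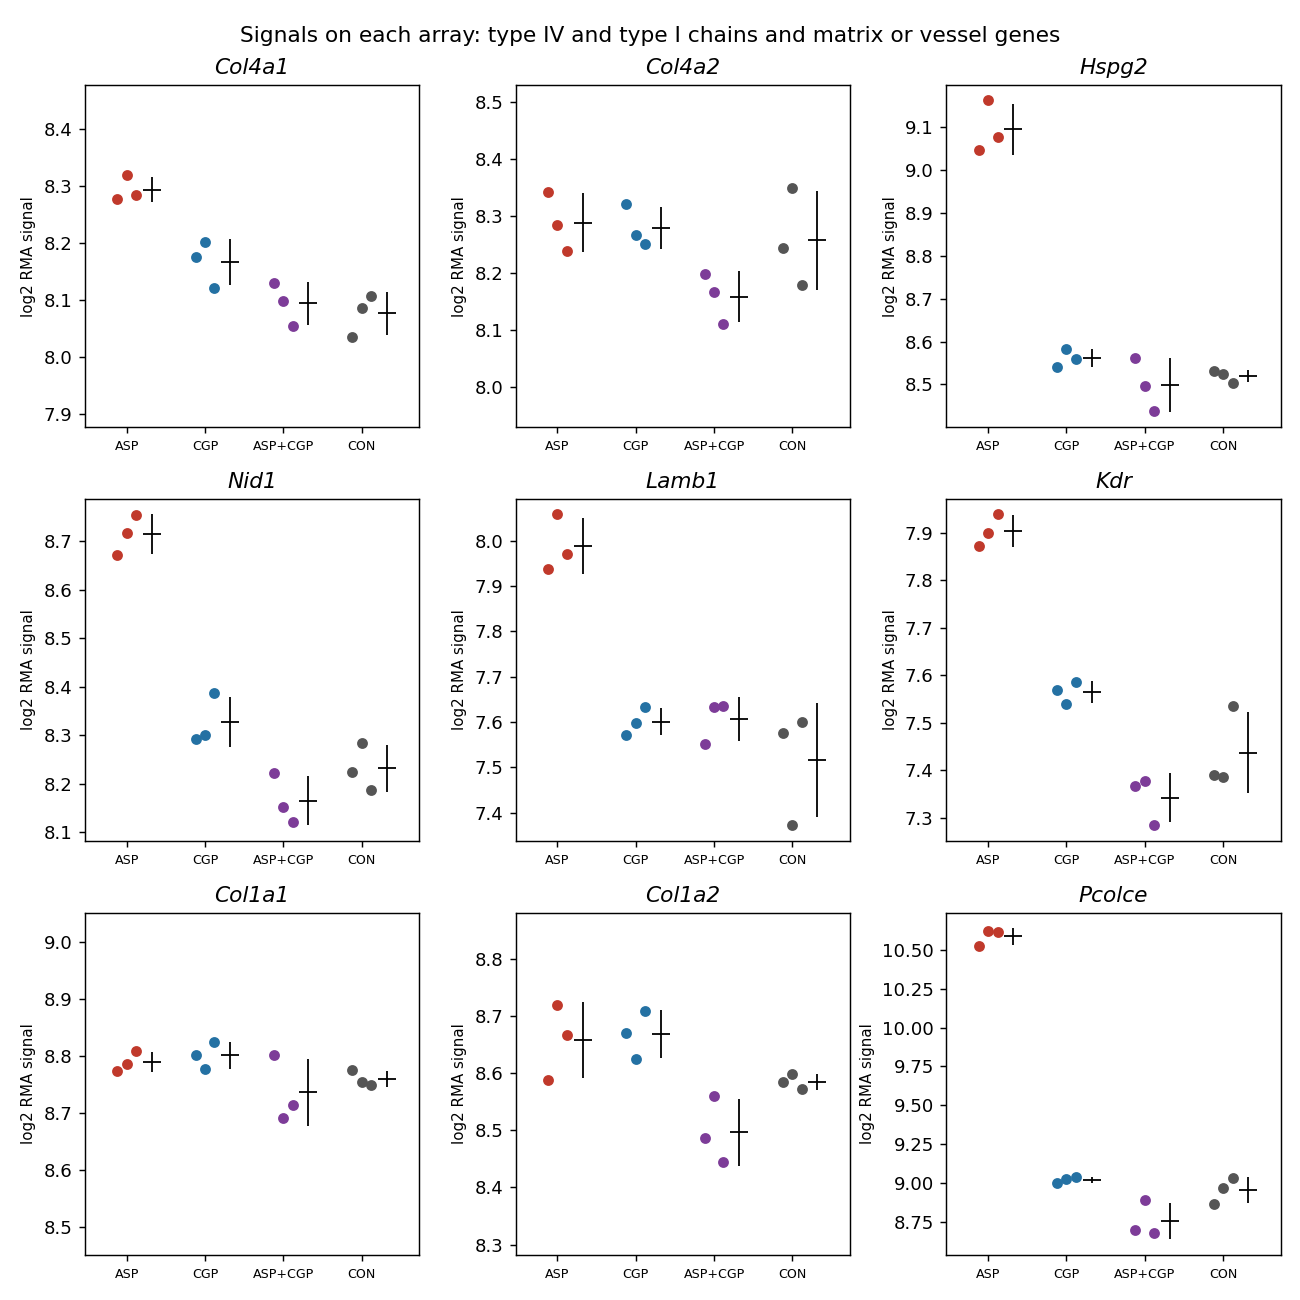
Log2 signal on each array (points, in array order 1 to 3) with the mean and SD of the 3 arrays of a pool (bar) for 4 collagen chain genes and 5 matrix or vessel genes, each on an axis of its own. The ASP points of Col4a1, Hspg2, Nid1, Lamb1, Kdr and Pcolce lie above all others, whereas those of Col4a2, Col1a1 and Col1a2 overlap other pools.

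The fibrillar chains, which carry the tensile strength of connective tissue, were the largest class, with 11 genes. Type I collagen, built from a pair of Col1a1 chains and 1 Col1a2 chain, was flat for its major chain. Col1a1 was at 8.77, 8.79 and 8.81 in ASP, 8.80, 8.78 and 8.83 in CGP, 8.80, 8.69 and 8.72 in ASP+CGP and 8.78, 8.76 and 8.75 in CON. The ASP and ASP+CGP arrays overlapped those of CON, the CGP arrays lay just above them, and over 12 arrays the signal ranged by 0.13. Col1a2 was at 8.59, 8.72 and 8.67 in ASP, 8.67, 8.63 and 8.71 in CGP, 8.49, 8.56 and 8.44 in ASP+CGP and 8.58, 8.60 and 8.57 in CON. The ASP+CGP arrays of Col1a2 were below those of the other 3 pools. The difference between ASP and ASP+CGP was 0.16 ± 0.05, with an adjusted p of 0.055 in limma, and the interaction was -0.25 ± 0.07 (0.057); both were just outside the threshold. Col3a1, the partner of type I in skin and vessel walls, was at 7.98, 7.95 and 7.83 in ASP and 7.92, 7.95 and 7.99 in CON, with overlapping arrays and a difference of -0.03 ± 0.05. Col2a1, the cartilage fibril chain, was at 8.20 to 8.36 in ASP and at 8.22 to 8.32 in CON.

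In CGP the collagen chain genes lay slightly above CON as a group, with none past the adjusted p, where 0.628% of all genes were. Of the 44 genes, 40 were above 0, against 58.1% of all genes tested, and their median was 0.08, against 0.01 over all genes. The arrays did not overlap for 19 genes that were higher in CGP (43.2%, against 12.0% of all genes) and for 1 that was lower (against 7.39%). Of the 11 genes at an unadjusted p under 0.05 all were higher in CGP, and the smallest adjusted p in limma was 0.14. By class, 11 of 11 fibrillar, 6 of 6 type IV, 9 of 9 fibril-associated and 2 of 2 multiplexin genes were above 0, whereas 4 of 6 type VI genes were. Genes on an array are not independent replicates, so this is a description of these arrays. Markers of other tissues also differed between these pools. In CGP vs CON 8 of 11 pituitary markers were higher past the adjusted p, with a median of 0.63. So were 2 of 10 choroid plexus markers, Ttr by 0.42 and Otx2 by 0.35. Choroid plexus markers did not set CGP apart from the other treated pools. Past the adjusted p, 3 of 10 were higher than in CON in ASP (median 0.17) and 2 of 10 in ASP+CGP (median 0.06). Of 17 hypothalamic markers 4 were lower past the adjusted p in CGP vs CON and 1 was higher, with a median of -0.18. The higher marker was Pomc (0.59), which is on the pituitary list too. The 15 markers of meningeal fibroblasts had a median of 0.04 in CGP vs CON, with none past the adjusted p. In the same comparison 11 of 11 exocrine pancreas markers were above 0 (median 0.09). So were 10 of 13 adipose markers (0.06) and 6 of 9 cartilage and bone markers (0.07). Of 10 collagen-binding proteoglycan genes 4 were above 0 (median -0.03). A small rise over CON was thus not particular to the collagen chain genes. The part of these tissues in the CGP collagen values was not tested.

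Both pools lay off the mean of the 12 arrays. The median deviation of the 44 genes from their own means over 12 arrays was -0.01, -0.02 and 0.01 in ASP. It was 0.05, 0.01 and 0.05 in CGP, 0.02, -0.01 and -0.01 in ASP+CGP and -0.05, -0.02 and -0.03 in CON. Arrays 1 and 3 of CGP were the highest and the 3 CON arrays were among the lowest, with the second ASP array beside them. On the CGP arrays 38, 26 and 35 of the 44 genes were above their own means, and on the CON arrays 5, 14 and 14 were. Since all 3 treated pools were set against the same CON arrays, a low CON value enters each of those comparisons: 32 of 44 genes were above 0 in ASP vs CON (median 0.03) and 32 in ASP+CGP vs CON (median 0.04), against 43.6% and 48.0% of all genes. Both medians moved by over 1.5 times with 1 array left out: without the first CON array they were 0.02 in ASP and 0.02 in ASP+CGP, and without the third ASP array that of ASP was 0.01.

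**Figure D3:**
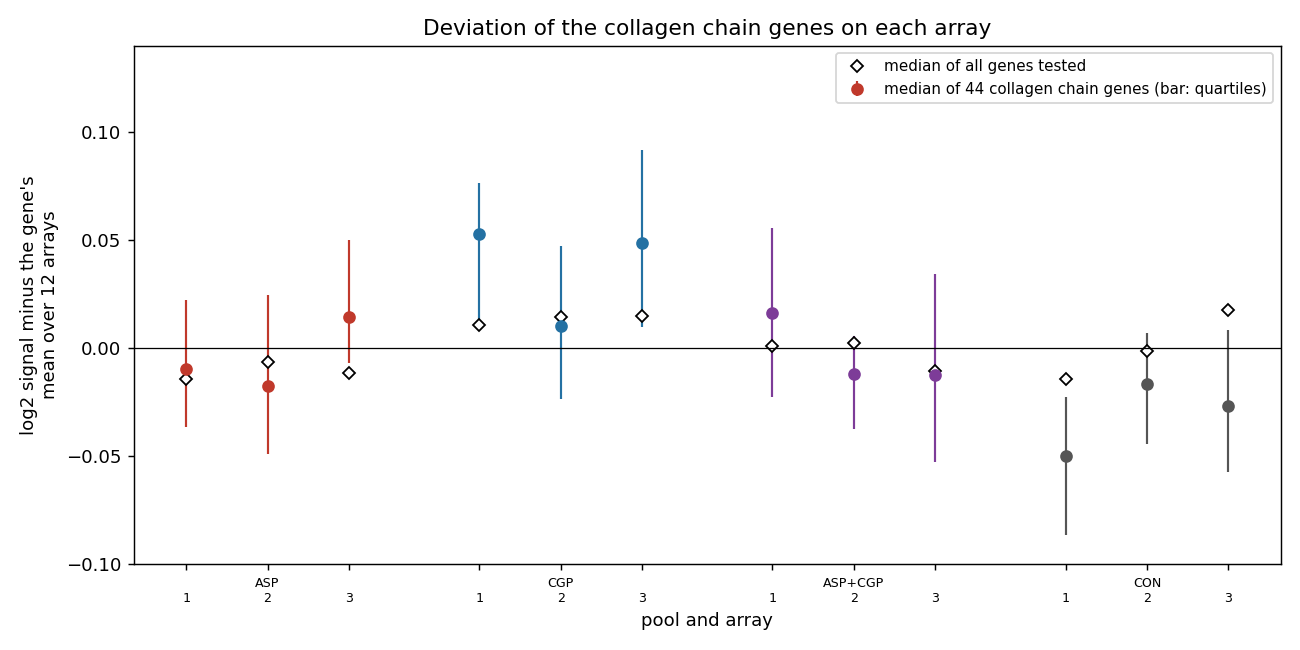
Median over the 44 collagen chain genes (filled points, bars for the quartiles) and over all genes tested (open diamonds) of the log2 signal minus the gene's mean over 12 arrays, for each array of the 4 pools. Arrays 1 and 3 of CGP lie at 0.05 and the CON arrays between -0.05 and -0.02, while the medians of all genes stay within 0.02 of 0.

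The largest single differences in CGP were small. Col26a1 was at 8.76, 8.69 and 8.67 on the CGP arrays and 8.54, 8.56 and 8.43 on the CON arrays. The groups did not overlap, and the difference was 0.20 ± 0.05 (adjusted p of 0.16 in limma). Col15a1, a multiplexin of the zone around vascular basement membranes, was at 8.00, 8.00 and 8.05 on the CGP arrays and 7.81, 7.91 and 7.88 on the CON arrays. Here too there was no overlap, with a difference of 0.15 ± 0.04 (adjusted p of 0.14 in limma). Col18a1, the related multiplexin from which endostatin is cut, differed by 0.09 ± 0.04, and Col24a1, a minor fibrillar chain, by 0.14 ± 0.05 (adjusted p of 0.46 and 0.27). Col6a1 was the one gene with lower, non-overlapping arrays in CGP: it was at 8.08, 8.07 and 8.13 on the CGP arrays and 8.13, 8.14 and 8.23 on the CON arrays, which lay next to each other, with a difference of -0.07 ± 0.04.

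In ASP the remaining differences were within 0.10 on the log2 scale. Col6a5 lay 0.09 above CON, but its other probe set lay below CON by 0.22 ± 0.08, so the sign of this gene depended on the probe set; for Col6a6 the 2 probe sets differed from CON by 0.05 and -0.05. Col23a1, a collagen that spans the cell membrane, was at 8.43, 8.41 and 8.41 in ASP and 8.60, 8.45 and 8.48 in CON. The ASP arrays were all below the CON arrays, by 0.10 ± 0.04 on average (adjusted p of 0.28 in limma). Col8a1, a chain of the hexagonal lattices found under endothelia, was at -0.09 ± 0.07 relative to CON. In ASP vs CON the arrays did not overlap for 5 higher genes (against 9.93% of all genes) and 1 lower gene (against 13.9%).

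In ASP+CGP vs CON the arrays did not overlap for 6 higher and 3 lower genes (against 7.15% and 10.2% of all genes). None was past the adjusted p, where 1.75% of all genes were, and the smallest adjusted p in limma was 0.28. Col6a5 (0.14), Col9a1 (0.12), Col17a1 (0.11) and Col26a1 (0.10) had the largest positive values. The other probe set of Col6a5 was at -0.03 ± 0.08, so its sign depended on the probe set here too. Col8a1 (-0.12), Col4a2 (-0.10), Col1a2 (-0.09) and Col23a1 (-0.08) had the largest negative values. Col9a1, a fibril-associated chain that decorates type II fibrils in cartilage, was at 7.60, 7.49 and 7.52 in ASP, 7.69, 7.64 and 7.73 in ASP+CGP and 7.66, 7.50 and 7.53 in CON. The ASP arrays lay below the ASP+CGP arrays, by 0.15 ± 0.05 on average (adjusted p of 0.10 in limma), while the first CON array reached into the ASP+CGP range. Col17a1, a membrane collagen of the junctions that anchor epithelia, was 0.12 ± 0.05 lower in ASP than in ASP+CGP (0.20). In ASP vs ASP+CGP 20 of 44 genes were above 0, against 46.1% of all genes, with a median of -0.01 in both sets (0.01 for the collagen chain genes without the second ASP array); the arrays did not overlap for 5 higher and 2 lower genes (against 12.3% and 14.6%).

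In the interaction, 39 of the 44 genes were below 0, against 9155 of all 17186 genes. Their median was -0.07, against -0.01 over all genes. After Col4a1 and Col1a2 the most negative were Col15a1 (-0.18, adjusted p of 0.11 in limma) and Col4a3 (-0.17, 0.20). The largest positive values, in Col6a4, Col9a1, Col23a1 and Col3a1, were 0.08 or less, and none had an adjusted p under 0.72. The interaction holds the CGP and CON arrays with opposite signs, and these were the pools with the highest and the lowest collagen medians. Other lists leaned the same way, so the lean was not particular to the chains. Below 0 were 18 of 22 genes of collagen synthesis and secretion, 11 of 12 basement membrane partners and 8 of 9 cartilage and bone markers. Of 17 hypothalamic markers 4 were.

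Among the members with the highest mean signals, Col25a1, the neuronal membrane collagen from which a component of amyloid plaques is cut, was at 9.09, 9.07 and 9.09 in ASP, 9.15, 9.21 and 9.10 in CGP, 9.15, 9.18 and 8.88 in ASP+CGP and 8.97, 9.04 and 9.07 in CON. Only the CGP arrays were clear of the CON arrays, by 0.12 ± 0.07 on average (adjusted p of 0.51 in limma), and the third ASP+CGP array was low. Col9a2 averaged 8.71 ± 0.13 in ASP, 8.83 ± 0.03 in CGP, 8.75 ± 0.04 in ASP+CGP and 8.72 ± 0.02 in CON (SD, n = 3 arrays each). Col6a6 averaged 8.60 ± 0.05 in ASP, 8.61 ± 0.06 in CGP, 8.62 ± 0.02 in ASP+CGP and 8.54 ± 0.03 in CON. Neither gene passed the adjusted p in any comparison. Actb, a housekeeping gene, was at 13.78 to 13.98 on the 12 arrays.

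Some genes that make, trim or bind collagen were called. Pcolce, which encodes the enhancer of the proteinase that removes the C-terminal propeptide of fibrillar collagens, was at 10.52, 10.62 and 10.61 in ASP, 9.00, 9.03 and 9.04 in CGP, 8.70, 8.89 and 8.68 in ASP+CGP and 8.87, 8.97 and 9.03 in CON. The ASP arrays stood well clear of all the others. The rise over CON was 1.63 ± 0.06 (3.10-fold, adjusted p of 2e-10 in limma) and that over ASP+CGP was 1.83 ± 0.06. Plod2, a lysyl hydroxylase whose product sets the type of cross-link, rose by 0.67 ± 0.07 to 7.88, 8.04 and 8.00 in ASP, against 7.36, 7.18 and 7.36 in CON. Of 12 genes of processing and cross-linking 2 were past the adjusted p in ASP vs CON (16.7%), and of 22 genes of synthesis and secretion 3 were (13.6%), all of them higher, against 2.92% of all genes; the medians of these lists were 0.02 and 0.04, and their quartiles were at -0.02 and 0.13 and at -0.03 and 0.11.

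The proteoglycans that coat collagen fibrils moved in both directions. Of 10 such genes, 2 were higher and 2 lower in ASP than in CON past the adjusted p (against 2.92% and 1.16% of all genes), and 1 was called. Bgn (biglycan) was at 10.20, 10.26 and 10.24 in ASP and 9.42, 9.51 and 9.50 in CON, a rise of 0.75 ± 0.05. In ASP+CGP 4 of 10 were lower than in CON past the adjusted p (against 0.919% of all genes) and none was higher, with a median of -0.19, against -0.00 over all genes. Fmod (fibromodulin, which sets fibril thickness) fell to 8.73, 8.70 and 8.81 in ASP+CGP, against 9.35, 9.38 and 9.40 in CON, a change of -0.63 ± 0.05. Prg4 (lubricin) fell to 7.75, 7.72 and 7.87 in ASP+CGP, against 8.54, 8.57 and 8.72 in CON, a change of -0.83 ± 0.06. The groups did not overlap for either gene. Prg4 was also lower than in CON, past the adjusted p but under 1.4-fold, in ASP (-0.40, adjusted p of 0.0018 in limma) and in CGP (-0.37, 0.016). Relative to ASP+CGP, Bgn was higher in ASP by 0.99 and Dcn (decorin) by 0.82. Of the 10 genes 7 were past the adjusted p in that comparison, all of them higher (against 4.25% of all genes).

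Markers of meningeal fibroblasts moved with the proteoglycans in ASP+CGP. Of 15 markers 7 were lower than in CON past the adjusted p (against 0.919% of all genes). None was higher and none was called, and the median was -0.25. The 11 fibrillar collagens, cartilage and minor chains among them, had a median of 0.04 in ASP+CGP vs CON, with 7 above 0 and 4 below. Of the type I and III chains, Col1a2 was at -0.09, Col1a1 at -0.02 and Col3a1 at 0.04. The part of meningeal fibroblasts in these values was not tested. In ASP the 13 adipose and 12 adrenal cortex markers had medians of 2.36 and 2.94, beside a median of 0.03 over the collagen chains. The part of these cell types in the Pcolce, Plod2, Bgn, Fmod and Prg4 differences was not tested. Of the 11 collagen receptors and 11 genes of collagen degradation and its inhibitors none was called in ASP vs CON, CGP vs CON or ASP+CGP vs CON. Past the adjusted p in ASP vs CON were 1 receptor, Itgb1 (the beta 1 integrin chain), higher by 0.17, and 2 degradation genes, the inhibitors Timp1 and Timp3, higher by 0.37 and 0.25 (against 2.92% of all genes). In ASP+CGP vs CON it was Mmp14 alone (a membrane-bound collagenase), at -0.19 (against 0.919%), and in CGP vs CON none was past it. In limma's unadjusted test 3, 1 and 2 receptors had a p under 0.05 in these comparisons (27.3%, 9.09% and 18.2%), and 3, 2 and 3 degradation genes had one (27.3%, 18.2% and 27.3%), against 16.9%, 11.6% and 15.4% of all genes. Timp1, which inhibits the matrix metalloproteinases that cut collagen, was higher in ASP than in ASP+CGP by 0.59 and was called there. Of 9 markers of cartilage and bone, which use type II, IX, X and XI chains, none was past the adjusted p in those 3 comparisons (0, 0 and 1 at an unadjusted p under 0.05 in limma).

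**Figure D4:**
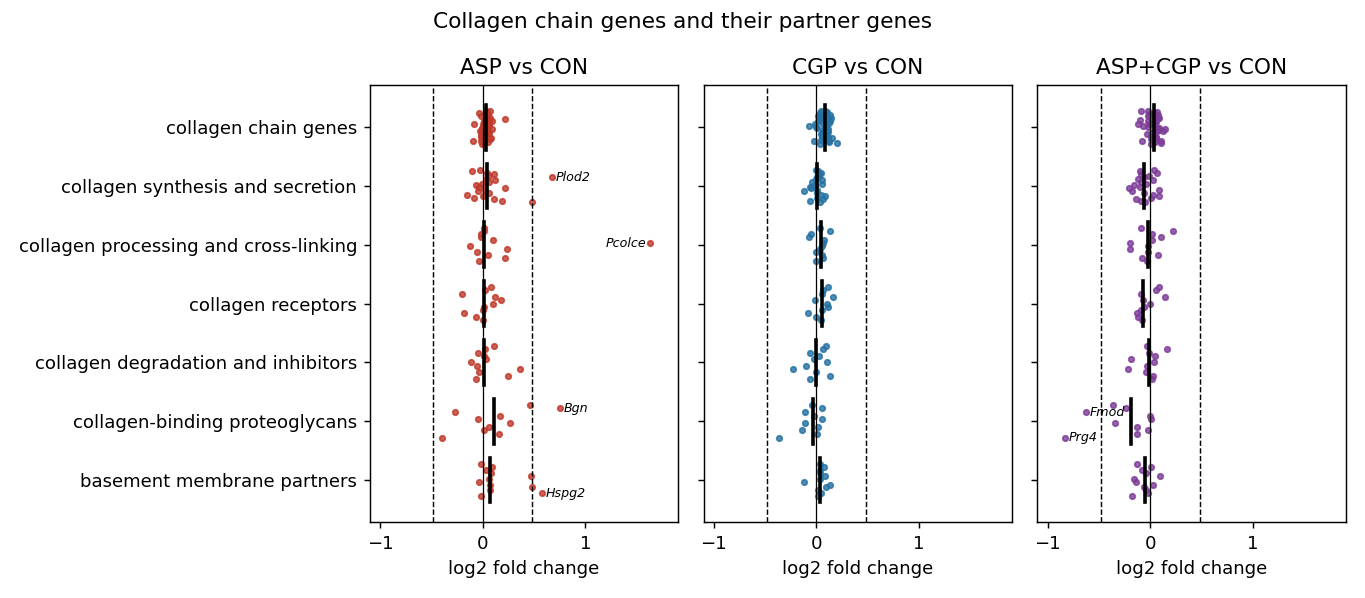
Log2 fold change relative to CON of the collagen chain genes and of 6 lists of genes that make, process, bind or degrade collagen (points, 1 per gene; thick bars, list medians) in ASP, CGP and ASP+CGP, with dashed lines at a change of 1.4-fold and names for genes past it. The chains lie within 0.22 of 0 in all 3 panels, while Pcolce at 1.63 in ASP and Prg4 at -0.83 in ASP+CGP lie furthest out.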

How the data were processed

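The authors hybridised pooled RNA of each group to 3 Mouse Gene 1.0 ST arrays and deposited log2 values made in Partek by robust multi-array averaging (RMA: background correction, quantile normalization and median polish). Deposited values were used without further scaling. Of 29149 probe sets, 19019 had 1 gene symbol, 1197 several and 8933 none in the platform annotation; for each gene the probe set with the highest mean was kept. A stated filter on values below 6 was checked: 2496 probe sets were under it on at least 1 array, so the filter was applied here. Group means over all 12 arrays were fitted in limma 3.58.1 (R 4.3.3; 8 residual and 5.43 prior degrees of freedom), p-values were adjusted over 17186 genes, and the fit was tested on simulated data. Named were called members, the 4 highest and 4 lowest per comparison, the 5 members of highest mean signal, partner chains, up to 4 called genes of each list and Actb. Of 243 symbols on 18 lists, 26 were not measured. The sample labels state no pairing of arrays between pools. Correlations of all same-numbered deviations were over 0.1 in ASP+CGP and CON alone. Members and lists were chosen with earlier results of these data known. Number of arrays limits precision. Alternatives changed the filter, probe set rule, normalization, limma settings, thresholds, block and arrays left out.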

Additional observations from a re-analysis of the deposited data

Results flagged for a closer look

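The aspartame difference of Col4a1 differed between the pools with and without CGP 39551, by a test of that difference against the spread between arrays. ASP+CGP less CGP was lower than ASP less CON by 0.29 on the log2 scale, an interaction of -0.29 ± 0.06 (SE, adjusted p of 0.012 in limma, 3 arrays a pool). The 3 ASP arrays were above every array of the other pools. Markers of other tissues had negative interactions too, with medians of -3.00 for 12 adrenal cortex, -2.76 for 11 pituitary, -2.42 for 13 adipose and -1.35 for 11 exocrine pancreas markers. The medians of 12 basement membrane partners and 12 endothelial markers were -0.17 and -0.16. The part of these in the Col4a1 value was not tested. Col4a1 was chosen from 44 genes after its value was seen, and each pool is 1 RNA pool.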

How the results depend on the processing

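No collagen chain gene was called under any alternative that kept a threshold of 1.4-fold or 1.5-fold. With no fold threshold 1 gene was called in ASP vs CON, 1 in ASP vs ASP+CGP and 1 in the interaction, and with 1.2-fold 1 in the interaction; each was Col4a1. Its adjusted p in limma ranged over the alternatives from 0.0030 to 0.040 in ASP vs CON, from 0.0061 to 0.048 in ASP vs ASP+CGP and from 0.0080 to 0.039 in the interaction. Past the adjusted p alone there were 2 genes in place of 1 in ASP vs ASP+CGP with a signal of at least 7 or with an intensity trend, and 2 in the interaction with a signal of at least 7, further quantile normalization or no moderation of the spread. Leaving out 1 array gave 1 to 2 in both, with 2 in ASP vs ASP+CGP without CON array 3, ASP array 1 or ASP+CGP array 2, and 2 in the interaction without ASP array 1 or ASP+CGP array 2. The added gene was Col1a2 in each case but the fit with no moderation, where it was Col15a1. The cause was not tested. Same-numbered arrays deviated together in ASP+CGP and CON alone, with correlations of 0.17, 0.26 and 0.54; in each other pair of pools at least 1 of the 3 was under 0.1, down to -0.11. With the replicate number as a block over 12 arrays the counts of calls stayed 0 in all 5 comparisons, and Col4a1 in ASP vs CON was 0.22 (adjusted p of 0.011). In ASP+CGP vs CON no collagen gene was past the adjusted p with this block (lowest 0.18 in limma, 4 at an unadjusted p under 0.05) or with the block on these 6 arrays alone (0.31, 1), a fit chosen after the data were seen, against 0.28 and 2 without a block. The fit on 6 arrays had 144 of all genes past the adjusted p in place of 300, 3 in place of 4 proteoglycan genes (Bgn was lost), 6 in place of 7 meningeal markers and no degradation gene in place of Mmp14. Signs turned for values near 0 that passed no test: Col6a5 in ASP with the mean of its probe sets (-0.063); Col6a2 in CGP (0.0062) and Col1a1 in ASP+CGP (0.0018) with further quantile normalization; and without array 3 of both CON and ASP+CGP, Col4a2 in ASP (-0.0085) and CGP (-0.017), Col6a2 in CGP (0.0374) and Col3a1 in the interaction (-0.018). With 1 array left out, values that crossed 0 ran in ASP vs CON from -0.061 to 0.018 for Col9a1, -0.065 to 0.0096 for Col3a1 and -0.0085 to 0.077 for Col4a2. In CGP vs CON they ran from -0.071 to 0.0374 for Col6a2, -0.057 to 0.025 for Col8a1, -0.049 to 0.023 for Col23a1 and -0.017 to 0.068 for Col4a2. In ASP+CGP vs CON Col4a1 ran from -0.0026 to 0.038, and in the interaction Col23a1 ran from -0.0066 to 0.065 and Col3a1 from -0.0083 to 0.067. The median of the 44 genes ranged over the alternatives from 0.01 to 0.04 in ASP vs CON, 0.06 to 0.08 in CGP vs CON, 0.02 to 0.06 in ASP+CGP vs CON, -0.03 to 0.01 in ASP vs ASP+CGP and -0.09 to -0.05 in the interaction. With each array centred on its median it was 0.06 in ASP+CGP vs CON, -0.03 in ASP vs ASP+CGP and -0.05 in the interaction. Dim signals limit how well small changes show.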
